A study of Mus musculus with 21 samples.

Results

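Ly6a, Anxa1, Anxa3, Clu, Il33, Spp1, Ctgf, Cyr61 and Areg are 9 genes used to recognise a fetal-like or regenerating state of the intestinal epithelium or activity of YAP, and they are described here across all groups of an organoid study. They were chosen by name from the gene symbols of the array's non-control probes, and all 9 were among the 21367 genes tested. Their probes numbered 10, since Anxa1 had 2 and the other genes had 1 each. Gene expression was measured on 21 two-colour Agilent arrays, 1 array per sample, with the organoid RNA in Cy3 and one common mouse reference RNA in Cy5, without dye swaps.

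The samples were small-intestinal organoids, epithelial cultures grown from isolated crypts in Matrigel. They came from mice made from KH2 embryonic stem cells, with the doxycycline-responsive activator M2-rtTA under the ROSA26 promoter. These mice carried a tet-O transgene for human, myc-tagged beta-catenin that lacks its N-terminal region (ΔN89). This form is shielded from degradation and keeps Wnt signalling on while doxycycline is present. Withdrawal cultures (4 arrays, letters D to G in the sample titles) had received doxycycline, which was then removed for 24 h. The other groups kept doxycycline. Compound 6 (4 arrays, D to G), compound 2 (3 arrays, A to C) and compound 9 (3 arrays, A to C) were each given at 2 µM for 24 h, and vehicle was given on 7 arrays (A to G). Per the labels the compounds are related 3,4,5-trisubstituted pyridines that inhibit the Mediator kinases CDK8 and CDK19. All groups carried the transgene, so no organoid without it was available for comparison, and the labels do not say whether arrays of a group came from separate animals or cultures. The p-values therefore measure the spread between these samples, which may be technical.

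YAP is a transcriptional co-activator that is held in the cytoplasm by the Hippo kinases and that, once in the nucleus, acts through the DNA-binding TEAD proteins. After injury, or when isolated crypts regrow, the intestinal epithelium can switch to a state resembling the fetal gut. In this state Ly6a (Sca-1), annexins and clusterin are made, and the stem cell markers of the uninjured epithelium are low. Among the 9 genes, Ly6a encodes a surface protein anchored by a lipid, Anxa1 and Anxa3 encode calcium-dependent phospholipid-binding proteins, and Clu encodes a secreted chaperone that marks regenerating "revival" stem cells. Il33 encodes an alarmin cytokine, Spp1 encodes the matrix protein osteopontin, Ctgf and Cyr61 encode matricellular CCN proteins that are widely used as YAP readouts, and Areg encodes amphiregulin, a ligand of the EGF receptor.

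The sequences behind the Ly6a and Areg readings, the largest changes against vehicle among the 9 genes, are shown in part or whole. The Ly6a probe lies at chr15:74825553-74825612 (mm9, minus strand) and the Areg probe at chr5:91570090-91570149 (mm9, plus strand), each 60 bases long. Whether these positions are exonic, intronic or in a UTR was not read, as no mm9 annotation was used here. The Ly6a line holds the first 30 bases of the probe and the Areg line holds the whole probe.
Ly6a: tatgagttatagaagctccaaggtgggagt
Areg: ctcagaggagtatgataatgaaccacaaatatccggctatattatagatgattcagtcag
The 250 bases before the start were available from RefSeq (GRCm38.p6) for 5 of the 9 genes (Anxa1, Il33, Spp1, Cyr61 and Areg); the others are Ly6a, Anxa3, Clu and Ctgf. Both strands were searched for GGAATG (the core bound by TEAD), TGANTCA (AP-1) and ATCAAAG (TCF/LEF). The TEAD core was present before Cyr61, starting at position -103 on the minus strand relative to the gene, before Anxa1 at position -236 on the minus strand, and before both starts of Il33 at positions -131 and -107. No match to any of the 3 motifs was found before Spp1 or Areg, and none to AP-1 or TCF/LEF before the other 3 genes. Of 32851 such windows in the RefSeq table, 12.6% held the TEAD core, 6.75% the AP-1 motif and 3.21% the TCF/LEF motif. The Cyr61 window (chr3:145649986-145650235, minus strand, TEAD core in capitals as its reverse complement) is given with the Areg window (chr5:91139349-91139598, plus strand), which held no match.
Cyr61: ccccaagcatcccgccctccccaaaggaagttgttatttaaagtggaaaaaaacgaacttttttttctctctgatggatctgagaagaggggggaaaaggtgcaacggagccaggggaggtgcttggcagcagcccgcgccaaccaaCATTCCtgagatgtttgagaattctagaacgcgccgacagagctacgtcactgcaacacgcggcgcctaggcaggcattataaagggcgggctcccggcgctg
Areg: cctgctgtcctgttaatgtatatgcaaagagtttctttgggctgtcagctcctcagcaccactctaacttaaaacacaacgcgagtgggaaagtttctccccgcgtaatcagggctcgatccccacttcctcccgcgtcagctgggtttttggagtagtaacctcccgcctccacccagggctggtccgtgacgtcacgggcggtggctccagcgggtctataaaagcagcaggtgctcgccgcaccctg

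In the sample channel 42.6% to 51.9% of spots stood well above background on the 21 arrays, and the number of arrays limits the precision. All 8 markers of epithelium (Epcam, Cdh1, Krt8, Krt18, Krt19, Vil1, Cdx2 and Cldn7) were well above background on all 21 arrays. Of the 9 genes, Ly6a, Anxa1, Anxa3, Clu, Spp1, Cyr61 and Areg were well above background on all 21 arrays. The Il33 probe was well above background on 16 arrays, but on 0 of the 4 compound 6 arrays. The Ctgf probe was well above background on the 9 arrays A to C and on 0 of the 12 arrays D to G. Values are log2 ratios of organoid RNA over the common reference, so a negative value means a lower signal than in the reference RNA and levels of different genes are not comparable. Changes are log2 differences ± SE from vehicle arrays with the same letters, fitted with limma across all genes with a term for each group and a term for the set (A to C or D to G). Adjusted p-values are Benjamini-Hochberg values over 21367 genes with a threshold of 0.05. Arrays with the same letter deviated together, so a second fit took each letter as its own block and dropped the set term. For the 9 genes its value is given where it changed a call, and for lists of other genes its counts are given. Sets A to C and D to G were also scanned on separate occasions, so set and scan cannot be told apart. Compounds 2 and 9 share the vehicle arrays A to C, and withdrawal and compound 6 share the vehicle arrays D to G.

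**Figure D1:**
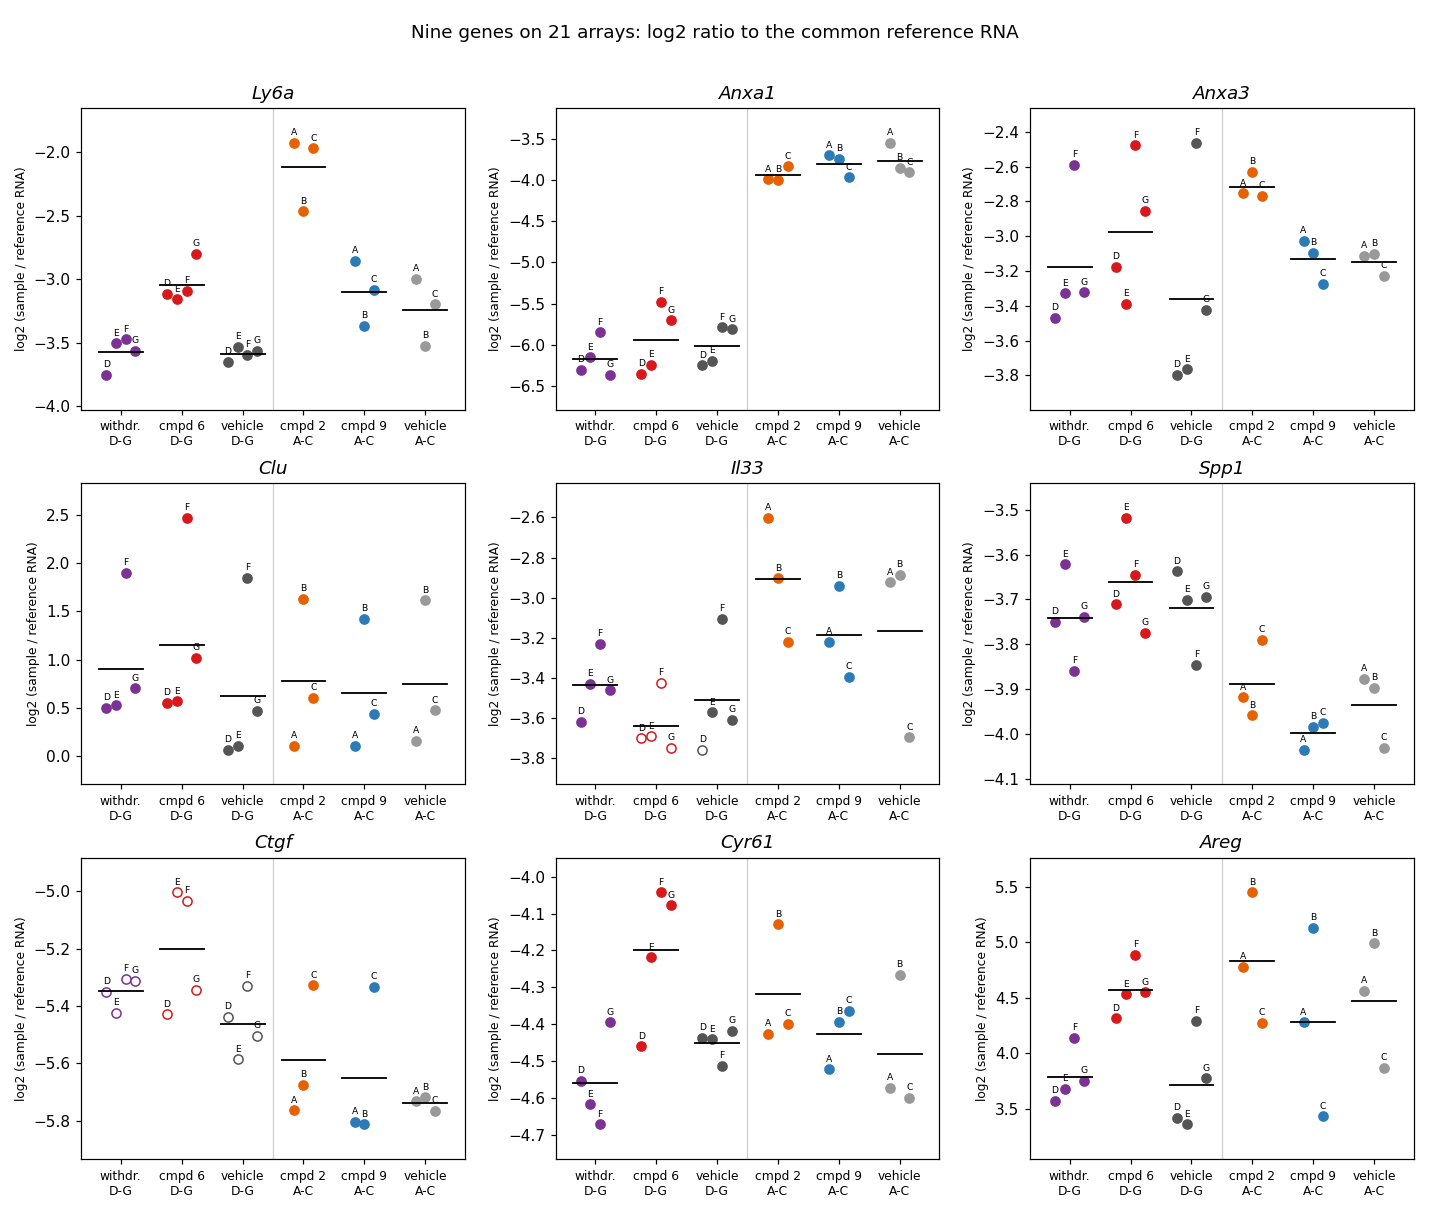
Log2 ratio of organoid RNA over the common reference RNA (y axis, a scale for each gene) for the 9 genes on 21 arrays, with letters beside the points and a line at each group mean. Open points were not well above background. Ly6a stood highest with compound 2, Anxa1 parted the 2 sets by over 2 log2 units, and Clu was highest on arrays with the letters F and B in every group.

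Ly6a was the only one of the 9 genes that rose past the threshold against vehicle in the fit with the set term, with compounds 2 and 6. With compound 2 the log2 ratio was -1.93, -2.46 and -1.97 on arrays A, B and C, against -3.0, -3.52 and -3.20 on vehicle arrays A, B and C. All 3 compound 2 arrays lay above all 3 vehicle arrays, and the rise was 1.12 ± 0.15 (2.17-fold, limma adjusted p = 0.000265), between 1.06 and 1.23 in the 3 letters. With compound 6 the ratio was -3.12, -3.16, -3.09 and -2.80 on arrays D to G, against -3.65, -3.53, -3.60 and -3.56 on vehicle arrays D to G. The groups again did not overlap, and the rise was 0.54 ± 0.13 (1.46-fold, limma adjusted p = 0.00583), between 0.38 and 0.77 in the 4 letters.

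Withdrawal and compound 9 left Ly6a near vehicle. The ratio was -3.75, -3.50, -3.47 and -3.56 on withdrawal arrays D to G, overlapping the vehicle arrays, with a change of 0.01 ± 0.13 (95% interval -0.27 to 0.29, limma adjusted p = 0.962). With compound 9 it was -2.86, -3.37 and -3.09 on arrays A to C, with a change of 0.14 ± 0.15 (95% interval -0.19 to 0.46, limma adjusted p = 1). Each compound 9 array stood above the vehicle array of its letter, by 0.11 to 0.15. Within set D to G the order of mean levels was compound 6 (-3.04 ± 0.16), withdrawal (-3.57 ± 0.13) and vehicle (-3.59 ± 0.05; SD, n = 4 each), of which withdrawal and vehicle did not differ beyond their spread. Within set A to C it was compound 2 (-2.12 ± 0.30), compound 9 (-3.10 ± 0.26) and vehicle (-3.24 ± 0.26; SD, n = 3 each), of which compound 9 and vehicle did not differ beyond their spread.

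Of the 3 pairs of compounds, the one given on the same letters differed. Ly6a was lower with compound 9 than with compound 2 by 0.98 ± 0.15 on the log2 scale, a change of -0.98 (95% interval -1.30 to -0.66, limma adjusted p = 0.00103), on 3 of 3 letters. Compound 6 was set against compounds 2 and 9 through each one's own vehicle arrays, at the same dose and time. The compound 6 change minus the compound 2 change was -0.57 ± 0.20 (95% interval -1.0 to -0.15, limma adjusted p = 0.182), and it was called with the letter as a block (adjusted p = 0.00635). The compound 6 change minus the compound 9 change was 0.41 ± 0.20 (95% interval -0.02 to 0.83, limma adjusted p = 0.254), also called with the letter as a block (adjusted p = 0.0137). Against withdrawal, compound 6 was higher by 0.53 ± 0.13 (limma adjusted p = 0.0105) on 4 of 4 letters.

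The Ly6a changes with compounds 2 and 6 were present on each slide that held both groups. For compound 2 they were 1.06 on slide 1 and 1.23 on slide 2. For compound 6 they were 0.55 on slide 3, 0.47 on slide 4 and 0.51 on slide 5, and with the slide as a block the change was 0.53 (limma adjusted p = 0.0154). The letters on slides 3 to 5 did not match between the groups, and slide 4 held 1 array of each, compound 6 F and vehicle G.

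The gene whose pattern was most like that of Ly6a over the 21 arrays was Ly6c1, a member of the same gene family, with a Pearson correlation of 0.94 of the log2 ratios minus the vehicle mean of the set. Fam117a (0.94) and Gorab (0.93) came next. These are descriptions over arrays that share vehicle samples and a reference RNA. Ly6c1 rose by 1.35 ± 0.17 with compound 2 (limma adjusted p = 0.000141) and by 0.66 ± 0.15 with compound 6 (adjusted p = 0.00341). It changed by 0.05 ± 0.17 with compound 9 (adjusted p = 1) and by 0.13 ± 0.15 after withdrawal (adjusted p = 0.586). The longest run of bases shared by the Ly6a probe and either Ly6c1 probe was 6 bases. Only the probes were compared with each other, so binding of Ly6c1 RNA to the Ly6a probe was not tested. Ly6g6c, another Ly6 gene, rose by 2.02 ± 0.42 with compound 6 (limma adjusted p = 0.00202). Of 8 other Ly6 genes tested, 1 rose with compound 2 (Ly6c1), where 5.29% of all genes passed, and 2 rose with compound 6, where 24.8% did, so the compound 6 count was at the level of all genes. None passed after withdrawal (20.7% of all genes) or with compound 9 (0% of all genes). In the fit with letter blocks, 5 of the 8 rose with compound 2 (17.3% of all genes), 3 rose with compound 6 (41.2%), 3 rose and 1 fell after withdrawal (39.1%), and none passed with compound 9.

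**Figure D2:**
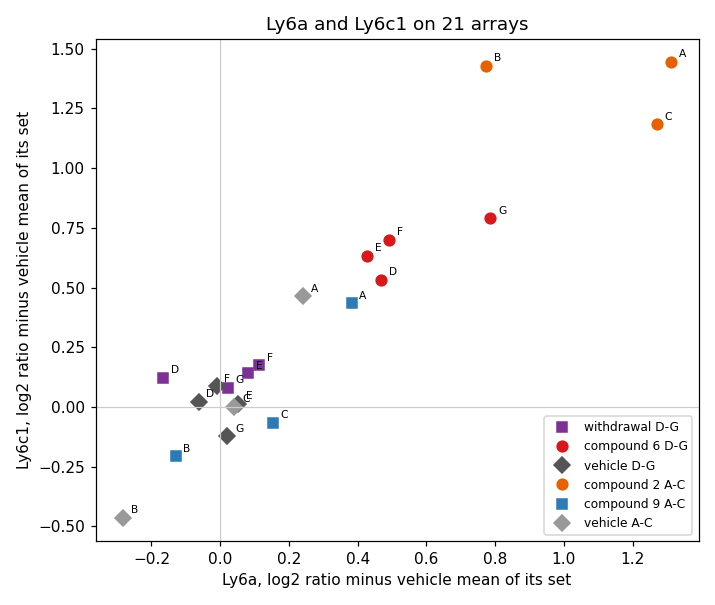
Log2 ratio minus the vehicle mean of the same set for Ly6a (x axis) and Ly6c1 (y axis) on 21 arrays, lettered as in the titles. The 3 compound 2 arrays lie farthest to the upper right, the 4 compound 6 arrays come next, and withdrawal, compound 9 and vehicle arrays lie nearer to 0 on both axes.

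Neither Anxa3 nor Anxa1 passed against vehicle in the fit with the set term on all 21 arrays. Anxa3 had a log2 ratio of -2.75, -2.63 and -2.77 on compound 2 arrays A to C, against -3.11, -3.10 and -3.23 on vehicle arrays A to C. The 2 groups did not overlap, and the change was 0.43 ± 0.28 (limma adjusted p = 0.485). With compound 6 it was -3.18, -3.39, -2.48 and -2.86 on arrays D to G, against -3.80, -3.77, -2.46 and -3.42 on vehicle arrays D to G, where the F arrays stood highest in both groups. The change was 0.39 ± 0.25 (limma adjusted p = 0.275), with 3 of 4 letters higher. Letter accounted for 79.3% of the sum of squares of Anxa3 over the 12 arrays D to G and group for 12.5%. With the letter as a block, Anxa3 rose with compound 2 (adjusted p = 0.0134) and compound 6 (adjusted p = 0.00417) and was lower with compound 9 than with compound 2 by 0.41 on the log2 scale (adjusted p = 0.0171). Its change after withdrawal was 0.18 ± 0.25 and with compound 9 it was 0.02 ± 0.28, and neither passed in either fit. Without the F arrays of all groups, Anxa3 passed with compound 2 (limma adjusted p = 0.0326) and compound 6 (0.52, adjusted p = 0.00379). It then also passed between compounds 9 and 2 (adjusted p = 0.0411). With only the arrays compared, Anxa3 passed with compound 2 (adjusted p = 0.038) and not with compound 6 or between compounds 9 and 2.

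Anxa1 did not pass with any treatment and differed between the sets. Its ratio was -6.25, -6.19, -5.79 and -5.81 on vehicle arrays D to G and -3.55, -3.85 and -3.90 on vehicle arrays A to C. The difference of -2.24 ± 0.18 (D to G minus A to C, limma adjusted p = 2.65e-08) is one that set and scan share. The second Anxa1 probe also read lower on the D to G arrays, with vehicle means of -4.64 and -3.28 for D to G and A to C. Treatment changes of Anxa1 ranged from -0.17 ± 0.20 with compound 2 to 0.07 ± 0.17 with compound 6, and the groups overlapped in all 4 comparisons with vehicle. Of 10 other annexins, 1 rose and 1 fell with compound 6, where 24.8% of all genes passed. The log2 changes were 0.20 ± 0.06 for Anxa6 (limma adjusted p = 0.0174) and -0.24 ± 0.08 for Anxa2 (adjusted p = 0.0419). None passed after withdrawal (20.7% of all genes), with compound 2 (5.29%) or with compound 9 (0%). With letter blocks, 4 of the 10 rose and 2 fell with compound 6 (41.2% of all genes). After withdrawal 1 rose (39.1%), with compound 2, 2 fell (17.3%), and none passed with compound 9.

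Clu varied by letter far more than by treatment. It read 0.50, 0.53, 1.90 and 0.70 on withdrawal arrays D to G, 0.55, 0.57, 2.47 and 1.02 on compound 6 arrays D to G, and 0.07, 0.11, 1.85 and 0.47 on vehicle arrays D to G. On arrays A to C it read 0.11, 1.63 and 0.60 with compound 2, 0.11, 1.42 and 0.44 with compound 9, and 0.16, 1.61 and 0.48 with vehicle. The F array was highest in each group of D to G and the B array in each group of A to C. Letter accounted for 98.7% of the sum of squares over the 9 arrays A to C and for 89.7% over the 12 arrays D to G. Within letters, Clu stood above vehicle on 4 of 4 compound 6 arrays, by 0.46 to 0.62, and on 4 of 4 withdrawal arrays, by 0.05 to 0.43. The fit with the set term gave 0.53 ± 0.50 for compound 6 (limma adjusted p = 0.485) and 0.28 ± 0.50 for withdrawal (adjusted p = 0.736). Both passed in the fit with letter blocks, at adjusted p = 7.33e-05 for compound 6 and adjusted p = 0.0076 for withdrawal. With compound 2 and compound 9 the changes were 0.03 ± 0.58 and -0.09 ± 0.58, not called in either fit.

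**Figure D3:**
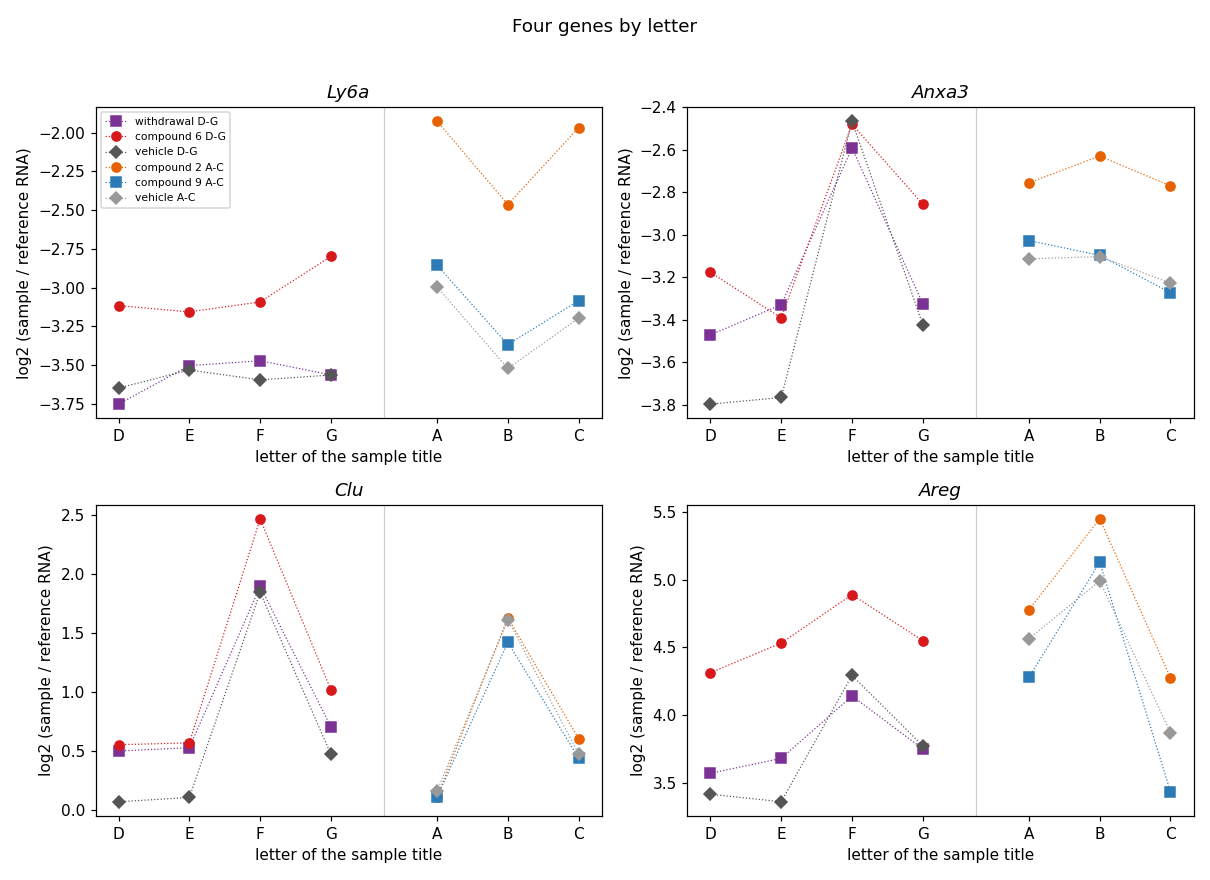
Log2 ratio over the reference RNA (y axis) by letter of the sample title (x axis) for Ly6a, Anxa3, Clu and Areg, with a marker and colour for each group. Clu rises and falls with the letter in all groups, while the compound 2 and compound 6 points of Ly6a lie above the vehicle points at every letter.

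Neither Il33 nor Spp1 passed in any comparison with vehicle. Il33 read -3.70, -3.69, -3.42 and -3.75 on compound 6 arrays D to G, none of them well above background, against -3.76, -3.57, -3.10 and -3.61 on vehicle arrays D to G, of which 3 were. The groups overlapped, and the change was -0.13 ± 0.18 (limma adjusted p = 0.638). The mean normalised Cy3 signal of the probe was 7.08 with compound 6, 7.30 after withdrawal and 7.20 with vehicle on the log2 scale (arrays D to G), and no fold is given for a group whose arrays were all near background. Il33 read -2.60, -2.90 and -3.22 on compound 2 arrays A to C, against -2.92, -2.88 and -3.70 on vehicle arrays A to C, a change of 0.26 ± 0.20 (limma adjusted p = 0.585). Spp1 moved little, with changes against vehicle between -0.06 ± 0.08 with compound 9 and 0.06 ± 0.07 with compound 6, and its log2 ratios lay between -4.04 (compound 9 array A) and -3.52 (compound 6 array E) over all 21 arrays.

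Genes for receptors of the 9 genes' products were counted as a list of 10. After withdrawal 3 rose and 2 fell, where 20.7% of all genes passed. The log2 change was -0.83 ± 0.20 for the integrin gene Itgb6 (limma adjusted p = 0.0075) and 0.28 ± 0.08 for the integrin gene Itgb5 (adjusted p = 0.0125). The lipoprotein receptor genes Lrp1 and Lrp6 rose by 0.47 ± 0.12 (adjusted p = 0.00903) and 0.35 ± 0.09 (adjusted p = 0.012). With compound 6, 1 rose and 1 fell, where 24.8% of all genes passed. Il1rl1, which encodes the receptor of Il33, rose by 0.25 ± 0.08 with compound 6 (limma adjusted p = 0.0257) and Lrp6 changed by -0.27 ± 0.09 (adjusted p = 0.0366). None passed with compound 2 (5.29% of all genes) or compound 9 (0%). In the fit with letter blocks, 3 rose and 3 fell after withdrawal (39.1% of all genes) and 1 rose and 3 fell with compound 6 (41.2%). None passed with compound 2 (17.3%) or compound 9.

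Of the YAP targets, Cyr61 was higher with compound 6 than after withdrawal. It read -4.46, -4.22, -4.04 and -4.08 on compound 6 arrays D to G, -4.55, -4.62, -4.67 and -4.39 on withdrawal arrays D to G, and -4.44, -4.44, -4.51 and -4.42 on vehicle arrays D to G. On 3 of 4 letters the compound 6 array stood above its vehicle array, with D the exception. Compound 6 minus withdrawal was 0.36 ± 0.10 (limma adjusted p = 0.0183), above 0 on 4 of 4 letters, and it was not called without compound 6 array F (0.31, adjusted p = 0.0564), compound 6 array G (0.32, adjusted p = 0.0542), withdrawal array E (0.34, adjusted p = 0.0508) or withdrawal array F (0.32, adjusted p = 0.0593). The call was also lost with the slide as a block (0.33, adjusted p = 0.0508), with the Cy3 channel by itself (0.28, adjusted p = 0.0523) and without the F arrays of all groups (0.27, adjusted p = 0.108). On slide 3 the difference was 0.47 and on slide 5, with 1 array in each group (compound 6 D and withdrawal G), it was -0.07. Against vehicle the compound 6 change was 0.25 ± 0.10 (limma adjusted p = 0.0683), which passed in the fit with letter blocks (adjusted p = 0.0199) and without compound 6 array D (0.34, adjusted p = 0.0163). The changes after withdrawal (-0.11 ± 0.10), with compound 2 (0.16 ± 0.11) and with compound 9 (0.05 ± 0.11) were not called in either fit.

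Ctgf, the other CCN gene, was near or below detection. On the arrays D to G, where its probe was not well above background in any group, no fold was given. On arrays A to C it read -5.76, -5.67 and -5.33 with compound 2, -5.80, -5.81 and -5.33 with compound 9, and -5.73, -5.72 and -5.77 with vehicle. In both compound groups only the C array stood apart, and the changes of 0.15 ± 0.14 and 0.09 ± 0.14 were not called in either fit.

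Areg had the second largest change, with compound 6. It read 4.31, 4.53, 4.89 and 4.55 on compound 6 arrays D to G, against 3.41, 3.36, 4.29 and 3.77 on vehicle arrays D to G. All 4 compound 6 arrays lay above all 4 vehicle arrays, although compound 6 array D exceeded vehicle array F by a small margin. The change of 0.86 ± 0.32 (1.82-fold, limma adjusted p = 0.0556) missed the threshold in the fit with the set term, and it passed with the letter as a block (± 0.10, adjusted p = 7.69e-06), with the slide as a block (0.88, adjusted p = 0.0128) and without vehicle array F (1.06, adjusted p = 0.0186). On each slide with both groups it was positive, at 1.18 on slide 3, 1.12 on slide 4 and 0.46 on slide 5. The letters on these slides did not match. Slide 3 held compound 6 arrays E and G and vehicle array E, and slide 5 held compound 6 array D and vehicle arrays D and F. Slide 4 held compound 6 array F and vehicle array G, and F was the highest letter in each group of D to G. Areg read 3.57, 3.68, 4.14 and 3.75 on withdrawal arrays D to G, and its change of 0.08 ± 0.32 was not called in either fit. Compound 6 exceeded withdrawal by 0.79 ± 0.32 (limma adjusted p = 0.108), by 0.74 to 0.85 in the 4 letters, and this passed with the letter as a block (adjusted p = 2.45e-05).

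On arrays A to C, Areg read 4.78, 5.45 and 4.27 with compound 2, 4.28, 5.13 and 3.43 with compound 9, and 4.56, 4.99 and 3.87 with vehicle. The B array was highest and the C array lowest in each group, and letter accounted for 81.8% of the sum of squares. Compound 2 stood above vehicle on 3 of 3 letters, by 0.36 ± 0.37 (limma adjusted p = 0.701, and 0.036 in the fit with letter blocks). Compound 9 stood below compound 2 on 3 of 3 letters, a difference of -0.55 ± 0.37 (95% interval -1.33 to 0.22, limma adjusted p = 0.51, and 0.00312 in the fit with letter blocks). The compound 6 change exceeded the compound 9 change by 1.06 ± 0.49 (95% interval 0.03 to 2.08, limma adjusted p = 0.215, and 0.000241 in the fit with letter blocks). It exceeded the compound 2 change by 0.50 ± 0.49 (95% interval -0.52 to 1.52, limma adjusted p = 0.732, and 0.045 in the fit with letter blocks). The genes most like Areg over the 21 arrays were Acta1 (0.94), Tnip1 (0.93) and Pcyt1a (0.93).

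**Figure D4:**
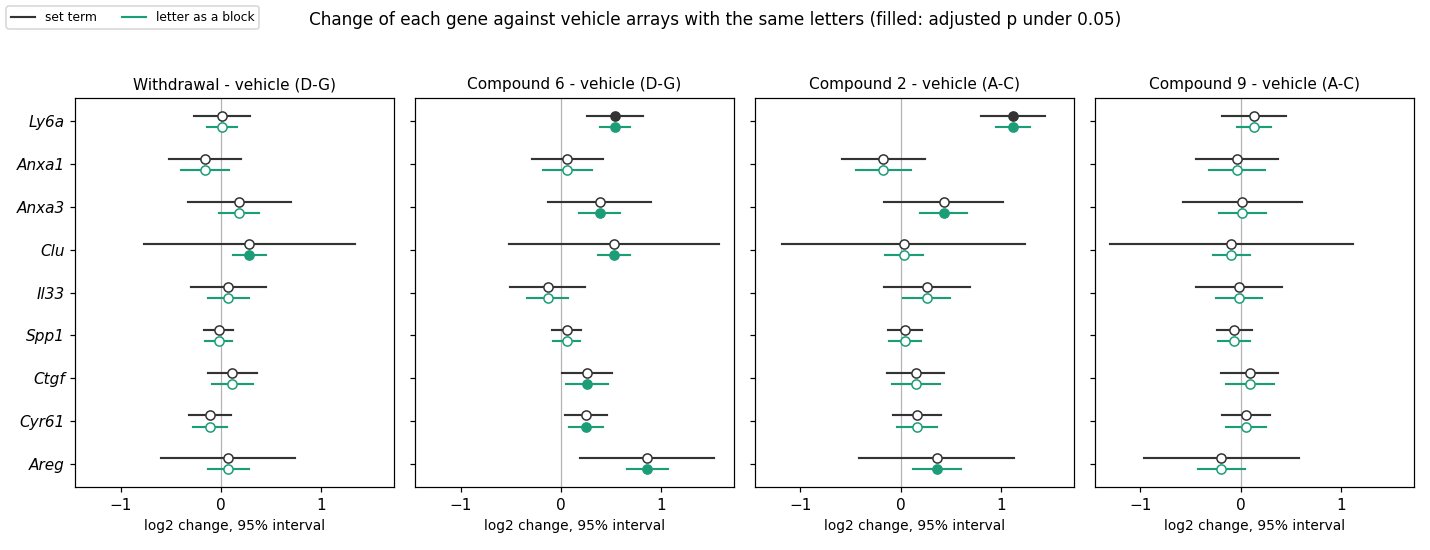
Log2 change against vehicle arrays with the same letters and its 95% interval (x axis) for the 9 genes, in the fit with the set term and in the fit with the letter as a block. Filled points passed the threshold of 0.05. In the fit with the set term these were Ly6a alone, with compounds 2 and 6. With the letter as a block they were Clu after withdrawal, Ly6a, Anxa3 and Areg with compound 2, and 6 genes with compound 6. Of these 6, Ctgf was not well above background on any array D to G.

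Counted over the 9 genes, 0 passed after withdrawal, where 20.7% of all genes tested passed. An unadjusted limma p under 0.05 was met by 0 genes after withdrawal, 0 with compound 9, 1 with compound 2 and 4 with compound 6. It was met by 1 between compounds 9 and 2 and by 3 between compound 6 and withdrawal. The share of all genes with such an unadjusted p is not given here. For compound 2, 1 passed (Ly6a) against 5.29% of all genes, and for compound 6, 1 passed (Ly6a) against 24.8%. Without vehicle array F 3 passed with compound 6, namely Ly6a, Areg and Anxa3 (0.69, limma adjusted p = 0.0105). For compound 9, 0 passed against 0% of all genes. Between compounds 9 and 2, 1 passed (Ly6a) against 4.8% of all genes, and between compound 6 and withdrawal, 2 passed (Ly6a and Cyr61) against 15%. No overlap between the groups was seen for 2 of the 9 genes with compound 2 (Ly6a and Anxa3), where 26% of all genes showed none, and for 2 with compound 6 (Ly6a and Areg), where 19.9% did. After withdrawal and with compound 9 it was seen for 0 of the 9 genes, against 16.8% and 5.17% of all genes. Between compounds 9 and 2 it was seen for 3 (Ly6a, Anxa3 and Spp1) against 25.1%, and between compound 6 and withdrawal for 2 (Ly6a and Areg) against 20.9%.

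With the letter as a block the counts were 1 of 9 after withdrawal (Clu), where 39.1% of all genes passed, 3 with compound 2 (Ly6a, Anxa3 and Areg) against 17.3%, and 6 with compound 6 against 41.2%. The 6 genes higher with compound 6 were Ly6a, Anxa3, Clu, Ctgf, Cyr61 and Areg, of which Ctgf was not well above background on any array compared. For compound 9, 0 of 9 passed against 0.00468%. Between compounds 9 and 2, 3 passed (Ly6a, Anxa3 and Areg, all lower with compound 9) against 15.9%, and between compound 6 and withdrawal, 4 passed (Ly6a, Clu, Cyr61 and Areg) against 34.1%. For compound 6 against compound 2, 3 passed (Ly6a, Clu and Areg) against 9.2%, and against compound 9 the same genes passed against 21.7%, where the fit with the set term passed 0 in each (0.566% and 6.53% of all genes).

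In the fit with the set term, other genes of the same programmes passed with compound 6 at a share near the 24.8% of all genes. Of 18 other genes of the fetal-like or regenerating epithelium, 4 rose and 1 fell with compound 6. Cldn4, a tight-junction protein, rose by 1.31 ± 0.26 (limma adjusted p = 0.00147), Sprr1a, a cornified-envelope protein, by 1.09 ± 0.26 (adjusted p = 0.00503), Plaur, the urokinase receptor, by 1.01 ± 0.21 (adjusted p = 0.0022) and Krt7, a keratin, by 0.40 ± 0.14 (adjusted p = 0.0373). After withdrawal 2 rose, where 20.7% of all genes passed. Sprr1a rose by 0.80 ± 0.26 (adjusted p = 0.0346) and Emp1 by 0.62 ± 0.16 (adjusted p = 0.0109). None passed with compound 2 or compound 9. With letter blocks, 7 rose and 4 fell with compound 6 (41.2% of all genes passed) and 4 rose and 3 fell after withdrawal (39.1%). With compound 2, 2 rose and 4 fell (17.3%), and none passed with compound 9. The median change of the 18 genes with compound 6 was 0.07, against -0.03 over all genes.

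Of 15 other YAP targets, 4 rose and none fell with compound 6, where 24.8% of all genes passed. Fjx1 rose by 0.85 ± 0.15 (limma adjusted p = 0.000656), F3, which encodes tissue factor, by 0.85 ± 0.26 (adjusted p = 0.0219), Asap1 by 0.37 ± 0.12 (adjusted p = 0.0313) and Tgfb2, which encodes a TGF-beta, by 0.36 ± 0.08 (adjusted p = 0.00293). Their median change was 0.08. After withdrawal, where 20.7% of all genes passed, 1 of 15 rose (Dock5, 0.37 ± 0.10, adjusted p = 0.0133). None passed with compounds 2 and 9. In the fit with letter blocks, 4 rose and 3 fell with compound 6 (41.2% of all genes) and 3 rose and 1 fell after withdrawal (39.1%). With compound 2, 2 rose (17.3%), and none passed with compound 9. Neither of the 2 other CCN genes tested passed in any comparison with vehicle in either fit.

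Of 16 genes of the Hippo pathway and its partners, 2 fell after withdrawal, where 20.7% of all genes passed. Both encode DNA-binding partners of YAP. The log2 change was -0.60 ± 0.09 for Tead1 (limma adjusted p = 0.000485) and -0.44 ± 0.10 for Tead2 (adjusted p = 0.00652). Of the same family, Tead3 (-0.0022 ± 0.10, adjusted p = 0.992) and Tead4 (-0.09 ± 0.12, adjusted p = 0.657) did not pass. With compound 6, 2 fell and 1 rose, where 24.8% of all genes passed. The change was -0.31 ± 0.10 for Tead2 (adjusted p = 0.0365) and -0.20 ± 0.06 for the kinase gene Taok1 (adjusted p = 0.0257). Wwc1, which encodes the Hippo activator KIBRA, rose by 0.58 ± 0.13 with compound 6 (adjusted p = 0.00262) and by 0.59 ± 0.15 with compound 2 (adjusted p = 0.0226). It was lower with compound 9 than with compound 2, at -0.61 ± 0.15 (adjusted p = 0.02). With letter blocks, 2 of the 16 rose and 4 fell after withdrawal (39.1% of all genes) and 1 rose and 7 fell with compound 6 (41.2%). With compound 2, 1 rose and 1 fell (17.3%), and none passed with compound 9.

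Among 9 other EGF family ligands and receptors, 1 rose and 1 fell with compound 6, near the 24.8% of all genes that passed. Hbegf, a ligand like Areg, rose by 0.76 ± 0.16 (limma adjusted p = 0.00269) with compound 6, while the receptor gene Erbb2 fell by 0.27 on the log2 scale (adjusted p = 0.0042). With compound 2 the ligand gene Epgn rose by 0.96 ± 0.22 (adjusted p = 0.0138), and with compound 9 it was lower than with compound 2, at -1.13 ± 0.22 (adjusted p = 0.00485). Epgn was the only 1 of the 9 called in these 2 comparisons, where 5.29% and 4.8% of all genes passed. None of these 9 passed after withdrawal or with compound 9 against vehicle (20.7% and 0% of all genes). In the fit with letter blocks, 3 rose after withdrawal (39.1% of all genes) and 2 rose and 1 fell with compound 6 (41.2%). With compound 2, 2 rose (17.3%), and none passed with compound 9.

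Markers of other cell types and of epithelium moved in the same arrays. Of all genes, 24.8% passed with compound 6, 20.7% after withdrawal, 5.29% with compound 2 and 0% with compound 9. Of 10 leukocyte markers 8 rose with compound 6, with Csf1r at 1.05 ± 0.15 (limma adjusted p = 8.19e-05) and Itgam at 0.55 ± 0.08 (adjusted p = 0.000128), and of 9 fibroblast markers 5 rose with compound 6, with Vim at 0.55 ± 0.11 (adjusted p = 0.00144). The summed Cy3 intensity of the leukocyte markers ranged from 17190 to 25206 on compound 6 arrays, from 16349 to 21289 on withdrawal arrays and from 10855 to 19264 on vehicle arrays D to G. On arrays A to C it was 12765 to 14764 with compound 2, 9462 to 12003 with compound 9 and 10574 to 11221 with vehicle. That of the fibroblast markers ranged from 5328 to 6445 on compound 6 arrays, from 5076 to 5655 on withdrawal arrays and from 4604 to 5324 on vehicle arrays D to G. On arrays A to C it was 5585 to 5677 with compound 2, 4760 to 5355 with compound 9 and 5235 to 5443 with vehicle. The fibroblast genes Pdgfra and Lum and the endothelial genes Cdh5 and Emcn were not well above background on any array. With compound 2, 0 of 10 leukocyte and 1 of 9 fibroblast markers passed (Col1a1, 0.44 ± 0.08, adjusted p = 0.00323), and with compound 9 none of either. After withdrawal the leukocyte marker Itgam rose by 0.29 ± 0.08 (limma adjusted p = 0.0165) and no fibroblast marker passed. Of 4 endothelial markers, 1 rose after withdrawal (Tek, 0.28 ± 0.07, adjusted p = 0.0112), 1 rose and 1 fell with compound 6, and 1 rose with compound 2 (Tek, 0.33 ± 0.08, adjusted p = 0.0263). Of the 8 epithelial markers, 2 fell after withdrawal, with log2 changes of -0.38 ± 0.09 for Krt18 (limma adjusted p = 0.00531) and -0.29 ± 0.09 for Krt8 (adjusted p = 0.0317). With compound 6 Krt18 rose by 0.29 ± 0.09 (adjusted p = 0.0184) and Epcam changed by -0.34 ± 0.10 (adjusted p = 0.0145). With compound 2 Vil1 rose by 0.35 ± 0.10 (adjusted p = 0.0413) and Krt18 by 0.36 ± 0.10 (adjusted p = 0.0437), and no epithelial or endothelial marker passed with compound 9. With letter blocks, 41.2% of all genes passed with compound 6, 39.1% after withdrawal and 17.3% with compound 2. In that fit 2 leukocyte markers rose with compound 2, 6 fibroblast markers rose with compound 6 and 2 endothelial markers rose after withdrawal. Of the epithelial markers, 3 fell after withdrawal and 2 with compound 6. The other counts of these lists against vehicle were as given. The part of these markers' cells in the changes of the 9 genes was not tested, and in bulk RNA fewer cells of a type and less RNA per cell cannot be told apart.

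Wnt targets fell on the withdrawal arrays. The log2 change was -3.19 ± 0.32 for Ascl2 (limma adjusted p = 1.23e-05), -2.51 ± 0.46 for Lgr5 (adjusted p = 0.00128), -1.36 ± 0.22 for Axin2 (adjusted p = 0.000547) and -2.08 ± 0.22 for Myc (adjusted p = 1.53e-05). Ascl2, Lgr5 and Axin2 also fell with compound 6, with a change of -2.25 ± 0.32 for Ascl2 (adjusted p = 7.49e-05). Myc did not pass with compound 6 (-0.12 ± 0.22, adjusted p = 0.73), and it was higher with compound 6 than after withdrawal by 1.96 ± 0.22 (adjusted p = 9.61e-06). Cdk19, which encodes a kinase the compounds inhibit, had a change of -0.32 ± 0.09 with compound 6 (adjusted p = 0.011). With compound 2 the Cdk19 change was of the same size, at -0.32 ± 0.10, and did not pass (limma adjusted p = 0.0725). With compound 2 Axin2 changed by -0.97 ± 0.25 (adjusted p = 0.0288). Ascl2 changed by -0.97 ± 0.36 with compound 2 and did not pass (limma adjusted p = 0.143), and neither did Lgr5 (0.03 ± 0.53) or Myc (0.04 ± 0.25). Ctnnb1 and Cdk8 complete this list of 7 genes. With letter blocks, 4 of the 7 fell after withdrawal (39.1% of all genes) and 1 rose and 4 fell with compound 6 (41.2%). With compound 2, 1 rose and 3 fell (17.3%), and none passed with compound 9.

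The 9 genes differed in how alike their patterns were. Over the 21 arrays, after subtraction of the vehicle mean of the set, the highest correlations among them were between Anxa3 and Clu (0.75), Clu and Areg (0.69) and Anxa3 and Areg (0.65), which share the high F arrays. Ly6a correlated with Anxa3 at 0.42 and with Clu at -0.11. The genes most like Anxa3 were Vav1 (0.95), Dmkn (0.95) and Alox5ap (0.93), those most like Clu were Pcolce (0.91), Cd14 (0.90) and F11r (0.90), and those most like Cyr61 were Slc37a2 (0.85), Edn1 (0.82) and Fam102a (0.82). Genes like Anxa1 included Ccdc64 and Fads6, at 0.76 to 0.78. For Il33 they were Azin1, Mfap3 and Luzp1, for Spp1 Tdrd3, Ccl3 and Defa26, and for Ctgf Irg1, Cd79b and Adssl1, at 0.73 to 0.87 over the 3 genes. Vehicle arrays of the 2 sets differed past the threshold for Ly6a (D to G minus A to C, -0.35 ± 0.14, limma adjusted p = 0.0489), Spp1 (0.22 ± 0.08, adjusted p = 0.0234) and Anxa1, and set and scan share these differences.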

How the data were processed

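The deposited scanner files hold the mean and background intensity of each spot in both channels, made with Agilent Feature Extraction 10.7.3.1 on mm9 probe coordinates, per the file headers. They also hold a log10 ratio of reference over sample, made by the authors with that program. The authors' series matrix gives sample over reference as log2 values, with centring not given in the sources used here (array medians -0.0074 to 0.089, Pearson correlation with the turned log10 ratio 0.924 to 0.950 on each array). Using limma 3.58.1 (R 4.3.3; files were read by the package data.table, version 1.17.8), intensities were corrected with normexp (offset 50), normalised by loess within arrays, and averaged over the spots of a probe; control spots were left out and 157 non-uniform spots were set missing. A probe was kept where Cy3 stood well above background on 3 or more arrays (29624 probes), and the brightest probe stood for a gene. Same-lettered arrays correlated at 0.21 to 0.75 in their deviations from group means (21 pairs), so letters were taken to pair samples. The test was two-sided; the fit was tested on simulated data. The genes, lists and tests were chosen with earlier results of these data known. Named list genes are up to 4 per comparison with the smallest adjusted p among those passing; likeness names up to 3 genes, and some items are not reported here. Alternatives changed the normalization, filter, probe rule, blocks and arrays. Figures used Python 3.11.15 and matplotlib 3.10.9.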

Additional observations from a re-analysis of the deposited data

Results flagged for a closer look

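Each gene was checked in each of the 3 groups with 4 arrays, 27 groups in all, for 1 array far from the others relative to the range of the group, a check that chance alone meets in about 1 of 20 groups. It was met 2 times, both by withdrawal array F. Anxa3 was at -2.59 on that array, with the other 3 withdrawal arrays between -3.47 and -3.32. Clu was at 1.90 on it, with the other 3 between 0.50 and 0.70. Compound 6 and vehicle arrays F were also the highest of their groups for both genes. The cause was not tested.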

How the results depend on the processing

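Ly6a kept its direction and its call under all 11 other settings for compound 2 (1.00 to 1.32), compound 6 (0.40 to 0.65), compound 9 against compound 2 (-1.07 to -0.93) and compound 6 against withdrawal (0.48 to 0.62), and with each array left out in turn. The count of the 9 genes passing moved with the letter as a replicate block, to 1 after withdrawal, 3 with compound 2, 6 with compound 6, 3 between compounds 9 and 2, 4 between compound 6 and withdrawal, and 3 for compound 6 against each of compounds 2 and 9. The block changed no other call of the 9 genes, and for compound 9 against vehicle the count stayed at 0. Without every letter F array it was 2 with compound 2, 2 with compound 6, 2 between compounds 9 and 2, and 1 between compound 6 and withdrawal. With only the arrays compared it was 2 with compound 2 and 2 with compound 6. For compound 6 against vehicle it was 2 with the series matrix, 3 with no set term and 2 with the slide as a block. For compound 6 against withdrawal it was 1 from Cy3 by itself and 1 with the slide as a block. With no set term it was 4 for compound 6 against compound 2 and 3 against compound 9. With 1 array left out it ranged from 1 to 3 for compound 6 against vehicle and from 1 to 2 against withdrawal. Of 784 changes of single genes under the 11 settings, 36 turned direction, 2 of them past the threshold, and of 630 with 1 array left out 59 did, none past it; the causes were not tested. With no set term, withdrawal gave -0.14 for Ly6a, -0.071 for Il33, 0.0699 for Spp1 and -0.25 for Areg. Compound 2 gave 1.11 for Anxa1, -0.077 for Spp1 and -0.0068 for Ctgf, and compound 6 gave -0.89 for Anxa1. Compound 9 gave 1.25 for Anxa1, 0.18 for Il33, -0.068 for Ctgf and 0.24 for Areg. Compound 6 against compound 2 gave -2.00 for Anxa1 (the set difference of this gene then enters) and -0.26 for Areg, and against compound 9 -2.14 for Anxa1. With the slide as a block withdrawal gave -0.0201 for Ly6a. Without the F arrays withdrawal gave -0.025 for Ly6a, compound 6 -0.014 for Anxa1, and compound 6 against compound 2 0.091 for Anxa3 and -0.036 for Spp1. With Agilent's processed ratios withdrawal gave 0.032 for Spp1, compound 9 -0.0097 for Anxa3 and -0.092 for Ctgf, compound 6 against withdrawal -0.073 for Ctgf, and against compound 2 0.10 for Anxa3. With the Cy3 channel alone withdrawal gave 0.0703 for Spp1, compound 2 -0.049 for Clu and -0.0204 for Ctgf, compound 9 -0.0064 for Anxa3 and -0.054 for Ctgf, and compound 6 against compound 2 0.014 for Anxa3. With the series matrix withdrawal gave 0.045 for Spp1, compound 9 -0.0004 for Anxa3 and -0.12 for Ctgf, compound 6 against withdrawal -0.026 for Ctgf, and against compound 2 0.10 for Anxa3. With 1 array left out, withdrawal ranged from -0.021 to 0.072 for Ly6a, -0.012 to 0.48 for Anxa3, -0.046 to 0.69 for Clu, -0.0071 to 0.21 for Il33, -0.065 to 0.017 for Spp1 and -0.044 to 0.27 for Areg. Compound 2 ranged from -0.39 to 0.46 for Clu, -0.0039 to 0.42 for Il33 and -0.0033 to 0.081 for Spp1, and compound 6 from -0.088 to 0.20 for Anxa1 and -0.21 to 0.0043 for Il33. Compound 9 ranged from -0.006 to 0.27 for Ly6a, -0.10 to 0.075 for Anxa1, -0.037 to 0.086 for Anxa3, -0.48 to 0.34 for Clu, -0.28 to 0.12 for Il33, -0.069 to 0.17 for Ctgf, -0.0072 to 0.16 for Cyr61 and -0.62 to 0.23 for Areg. Compound 9 against compound 2 ranged from -0.51 to 0.30 for Clu and -0.22 to 0.069 for Ctgf, and compound 6 against withdrawal from -0.19 to 0.58 for Clu. Compound 6 against compound 2 ranged from -0.21 to 0.26 for Anxa3, -0.036 to 0.061 for Spp1 and -0.015 to 0.19 for Cyr61, and against compound 9 from -0.054 to 0.24 for Anxa1 and -0.26 to 0.15 for Il33. The share of called genes that were higher was 35.3% after withdrawal and 62.6% with compound 2, and 47.1% and 48.8% with Agilent's processed ratios. Signal near background limits Ctgf and Il33: with Agilent's processed ratios Il33 was at -1.47 for compound 6 against withdrawal (limma adjusted p = 0.0426).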
